A study of Lentinus brumalis with 11 samples.

Results

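The 69 genes described here were transcribed at far higher levels when the white-rot fungus *Polyporus brumalis* grew on wheat straw than when it grew in liquid malt medium, at every time point sampled. They were chosen from the 18244 genes in the count table by their measured values. A gene's level is log2(normalized count + 1), where the normalized count is the number of reads on the gene divided by the library's median-of-ratios size factor. A gene was kept when its mean level on each of the 3 straw days was at least 4 above the control mean, which is on the log2 scale, and when its highest group mean was at least 7. These thresholds were met by 105 genes (0.576% of all genes). Of these, 36 are enzymes, transporters and other genes that the study itself listed in its tables, and they were left out. The remaining 69 make up 0.378% of the genes in the table, and the study's tables give them no annotation.

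White-rot fungi are basidiomycetes that break down lignin as well as cellulose and hemicelluloses, and they secrete peroxidases, oxidases and hydrolases to do so. In solid-state fermentation (SSF) the mycelium colonizes moist plant material with little free water, so that the fungus meets an insoluble polymeric substrate in place of the soluble sugars of malt extract. Transcripts that rise under such conditions usually include those of carbohydrate-active enzymes, of ligninolytic oxidoreductases, of transporters and of intracellular detoxification enzymes, beside many proteins of unknown function.

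RNA was sequenced from mycelium of the dikaryotic strain BRFM 985, which was pre-cultured on malt extract and then grown on sterilized wheat straw for 4, 10 or 15 days. The straw was supplied with a solution of copper, iron and manganese sulphates. The groups were SSF Day 4 (2 libraries), SSF Day 10 (3 libraries), SSF Day 15 (3 libraries) and the control, 10-day mycelium from medium with 2% malt extract (3 libraries). The genome used for mapping came from a monokaryon of the same fungus, so reads of a dikaryon allele that differs from that sequence may be counted less well. As described, straw and control cultures differed in substrate, in solid or liquid state, in the ground inoculum, the air stream and the metal solution. Cultures of SSF Day 10 and Day 15 were also older than the control, since the days on straw followed a malt pre-culture. With the pre-culture counted, SSF Day 4 cultures were about as old as the 10-day control. The parts of the factors that differed on a given day cannot be told apart in the differences from the control.

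Library totals lay between 20368063 and 42408348 counts. One gene met the difference of 4 on all 3 days and was dropped for its low level. With scaling by library totals in place of size factors, the median of the 11611 genes whose highest mean was at least 7 moved to -0.34 on Day 4, -0.18 on Day 10 and -0.22 on Day 15 relative to the control, and 47 of the 69 genes still met the thresholds. The labels number the replicates without saying what they shared. The p-values below take each library as a separate unit, and the study calls the replicates biological. It also describes pooling of the straw of replicate cultures for biochemical measurements. Whether RNA was taken before or after such pooling is not stated.

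The differences from the control chose the genes and are given as a description. At least 4 above the control stood 263 genes on Day 4 (1.44% of all), 206 on Day 10 (1.13%) and 201 on Day 15 (1.1%). The union of the 3 days held 359 genes, while 106 were common to all days. The 69 genes had a median difference of 5.38 on Day 4, 5.51 on Day 10 and 5.17 on Day 15. Their median level was 12.52 on Day 4, 12.36 on Day 10 and 12.29 on Day 15, against 6.92 in the control. The median of all genes was 7.69 on Day 4, 7.76 on Day 10 and 7.76 on Day 15, against 7.69 in the control. In malt medium 47 of the 69 genes were thus below the median gene. All had reads there, since no control library had a count of 0 for any of them. The lowest total of a gene over the 3 control libraries was 22 counts. The lowest straw library exceeded the highest control library by 3.57 to 8.17, with a median of 4.31.

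Of all counts in a library, the 69 genes took 3.99% ± 0.0675 on Day 4 (SD, n = 2), 3.65% ± 0.0447 on Day 10 and 3.30% ± 0.0696 on Day 15 (n = 3 each), against 0.0843% ± 0.00102 in the control (n = 3). The 3 libraries of Day 15 held 3.22%, 3.36% and 3.32%, and the 3 of Day 10 held 3.67%, 3.68% and 3.60%. The days did not overlap. Their difference was -0.35 percentage points, with an exact two-sided permutation p = 0.1, the smallest that 3 against 3 libraries can give. Each share covers the RNA of the whole culture, so fewer transcribing cells and less RNA per cell cannot be told apart. The 36 genes in the study's tables took 7.03% on Day 4, 5.90% on Day 10 and 4.10% on Day 15, against 0.0482% in the control.

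**Figure D1:**
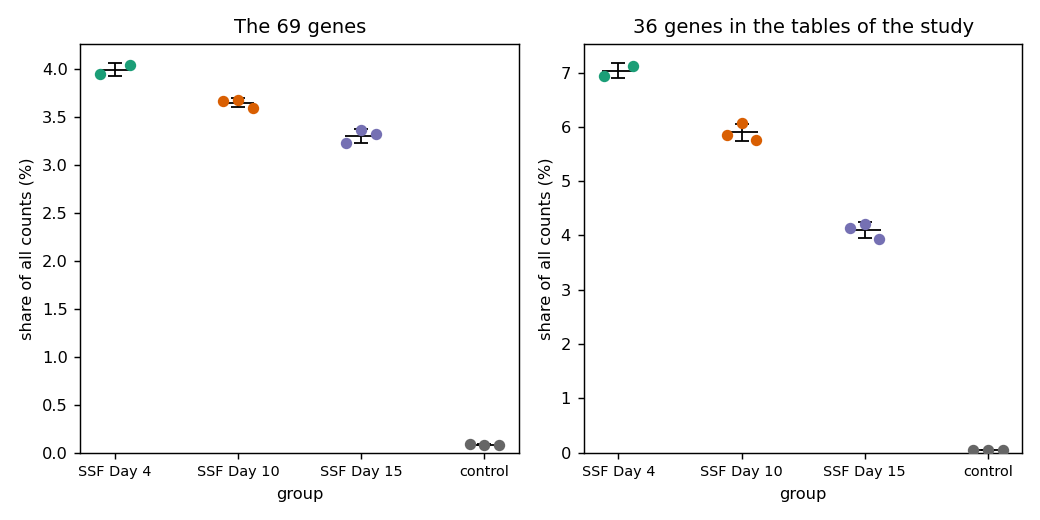
Share of all counts in a library (%) taken by the 69 genes (left) and by the 36 genes that met the same thresholds and are in the study's tables (right), by group. Points are libraries, and bars are means with SD. The 69 genes took 3.99% on Day 4, 3.65% on Day 10 and 3.30% on Day 15, against 0.0843% in the control.

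A few genes carried much of this transcript. The 6 genes with the highest mean level over the straw days, ProtID #1397426, #1479696, #1339927, #1485383, #1407763 and #1484272, held between 40.4% and 49.1% of the counts of all 69, depending on the library.

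ProtID #1397426 had levels of 17.90 and 18.03 on Day 4, 17.07, 16.76 and 16.86 on Day 10 and 16.59, 16.46 and 16.40 on Day 15, against 12.03, 12.08 and 12.12 in the control. It was the only one of the 69 with a control mean above 12, a level that 1082 genes exceeded in malt medium. Its straw days did not overlap and stood in falling order, and the fall from Day 4 passed the test on Day 10 (log2 fold change -1.04 ± 0.12 SE, edgeR adjusted p = 2e-05) and on Day 15 (-1.46 ± 0.12, adjusted p = 5.3e-07).

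The course of ProtID #1479696 was the opposite. Its levels were 16.10 and 16.28 on Day 4, 17.42, 17.60 and 17.12 on Day 10 and 17.30, 17.51 and 17.35 on Day 15, against 9.56, 9.45 and 9.60 in the control. Every library of Days 10 and 15 was above both of Day 4 (Day 15 against Day 4, 1.22 ± 0.15, edgeR adjusted p = 1.3e-05), while Days 10 and 15 overlapped. Per kilobase of gene span, which includes introns, it ranked first of the 69, with 167433 normalized counts per kb on Day 15, 168232 on Day 10 and 72979 on Day 4, against 724 in the control. ProtID #1397426 ranked second per kilobase, with 108388 on Day 4, 51814 on Day 10 and 38896 on Day 15, against 1828 in the control. Of the 6 genes, 4 were also among the 6 highest per kilobase. The others in that group were #1407324 and #1396569, which were named after their values were seen, and whose spans overlap a neighbouring gene, so that reads may be shared.

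The fall of ProtID #1484272 was steeper. It had levels of 17.20 and 17.04 on Day 4, 14.56, 14.44 and 14.94 on Day 10 and 13.72, 13.62 and 13.73 on Day 15, against 9.14, 9.12 and 9.05 in the control. No 2 straw days overlapped, and both later days were lower than Day 4 (Day 10, -2.43 ± 0.14, edgeR adjusted p = 3.9e-08; Day 15, -3.41 ± 0.15, adjusted p = 1.6e-09).

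In contrast, ProtID #1339927 was lower only on Day 15. The levels were 15.78 and 15.70 on Day 4, 16.00, 15.95 and 15.86 on Day 10 and 14.90, 14.92 and 14.79 on Day 15, against 10.71, 10.64 and 10.52 in the control. All 3 libraries of Day 15 were below every other straw library (Day 15 against Day 10, -1.07 ± 0.10, edgeR adjusted p = 1.8e-05), while Day 10 against Day 4 did not pass the test (0.22 ± 0.11, adjusted p = 0.11).

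The remaining pair of abundant genes varied little on straw. ProtID #1407763 had levels of 15.20 and 15.22 on Day 4, 15.48, 15.59 and 15.69 on Day 10 and 15.40, 15.59 and 15.56 on Day 15, against 8.86, 8.76 and 8.98 in the control. Day 4 was the lowest day by a small margin (Day 15 against Day 4, 0.33 ± 0.11, edgeR adjusted p = 0.023). This call was lost, at 0.32, 0.35, 0.30 and 0.31, when SSF Day 4 replicate 1 or 2 or SSF Day 15 replicate 2 or 3 was left out. ProtID #1485383 had levels of 15.58 and 15.54 on Day 4, 15.63, 15.68 and 15.80 on Day 10 and 15.18, 15.26 and 15.30 on Day 15, against 10.90, 11.01 and 11.03 in the control. Its Day 15 libraries were the lowest on straw and did not overlap those of Day 10 (-0.46 ± 0.09, edgeR adjusted p = 0.0035).

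**Figure D2:**
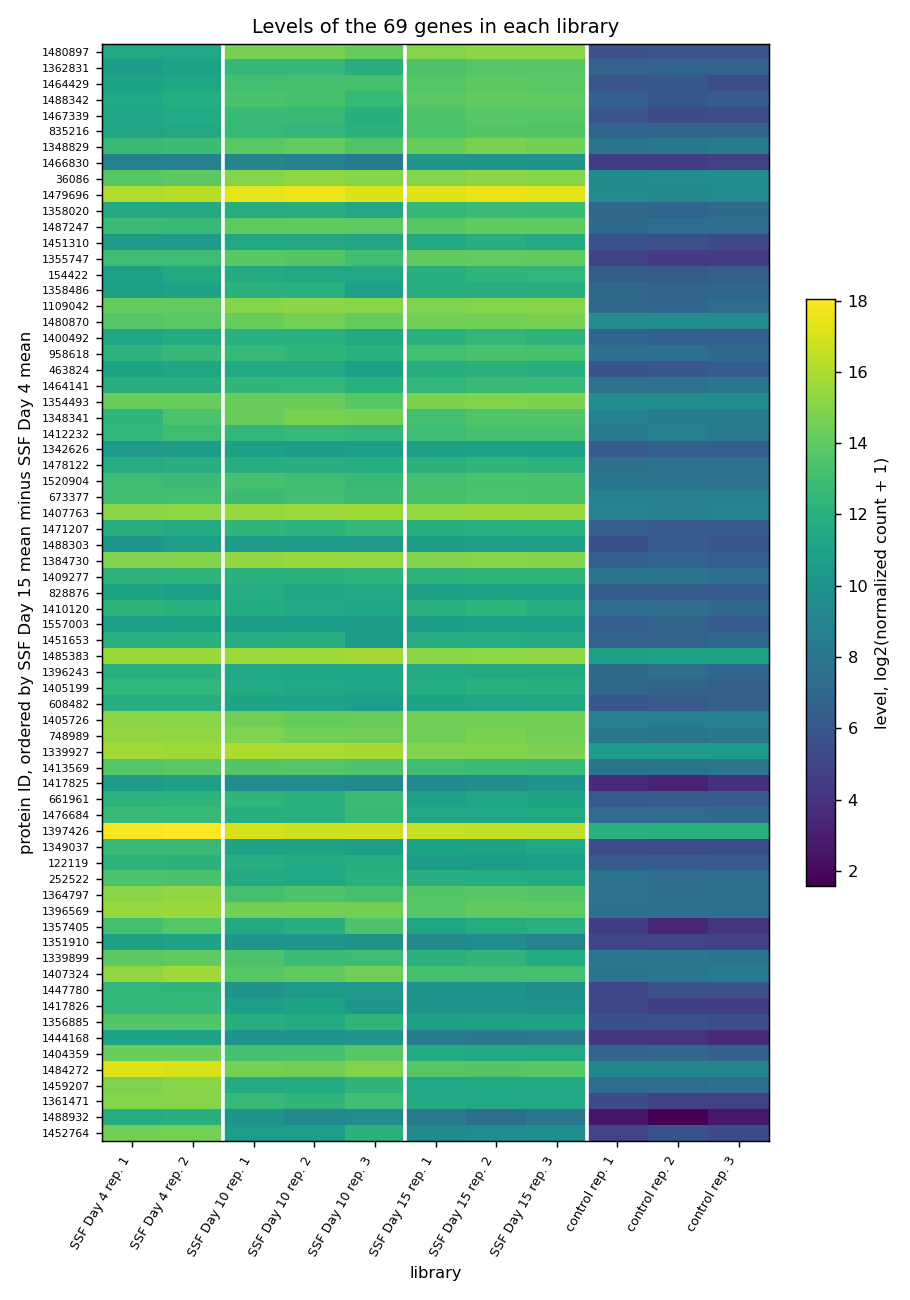
Levels, log2(normalized count + 1), of the 69 genes in each of the 11 libraries, ordered from the genes that were highest on SSF Day 15 relative to SSF Day 4 (top) to those that were lowest (bottom). All 3 control libraries are darker than the straw libraries in every row, and the brightest rows are ProtID #1479696 and #1397426.

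The contrast with malt medium was widest in 4 genes, those with the highest value of their smallest difference from the control over the 3 days. ProtID #1355747 had levels of 12.91 and 12.94 on Day 4, 13.73, 13.61 and 12.97 on Day 10 and 14.02, 14.08 and 14.00 on Day 15, against 4.74, 4.34 and 4.46 in the control. Its mean was 8.41 above the control on Day 4, 8.92 on Day 10 and 9.52 on Day 15, so the least of the 3 was the highest of any gene in the set. All straw libraries were far above those of the control, in which the gene had 112 counts in total.

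ProtID #1384730 had levels of 14.86 and 14.89 on Day 4, 15.35, 15.47 and 15.45 on Day 10 and 14.88, 15.01 and 14.90 on Day 15, against 6.52, 6.78 and 6.50 in the control. Day 10 was above both other days without overlap (Day 10 against Day 4, 0.57 ± 0.11, edgeR adjusted p = 0.001; Day 15 against Day 10, -0.49 ± 0.10, adjusted p = 0.003).

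ProtID #1109042 had levels of 14.13 and 14.10 on Day 4, 15.03, 15.16 and 15.14 on Day 10 and 14.85, 14.99 and 15.05 on Day 15, against 7.08, 7.03 and 7.40 in the control. Days 10 and 15 overlapped each other and were both above Day 4 (Day 15 against Day 4, 0.88 ± 0.12, edgeR adjusted p = 5.2e-05). ProtID #1357405 had levels of 13.10 and 13.68 on Day 4, 11.59, 11.88 and 13.43 on Day 10 and 11.35, 11.80 and 12.02 on Day 15, against 4.43, 3.37 and 4.03 in the control. For this gene the third Day 10 library lay within the Day 4 values, away from the other 2, and gave the largest SD of any of the 69 genes on that day (0.990). Day 15 was lower than Day 4 (-1.65 ± 0.43, edgeR adjusted p = 0.0048), while Day 10 against Day 4 did not pass the test (-0.85 ± 0.42, adjusted p = 0.12).

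The rule did not use the differences between straw days. It does limit how far a gene of the set can fall, or how low it can start, on any straw day. The counts of rises and falls below are therefore not free of the choice of genes. Differences between straw days were tested across all 15462 genes that passed a filter on low counts. The test was edgeR's quasi-likelihood test with Benjamini-Hochberg adjustment at 0.05. All 69 genes passed that filter, and their lowest count in a straw library was 135. Log2 fold changes below are those of the fit. Between Day 10 and Day 4, 21 of the 69 genes were higher on Day 10, beside 22.3% of all genes tested, and 26 were lower, beside 22%. Between Day 15 and Day 4, 30 were higher on Day 15, beside 28.6% of all genes, and 31 were lower, beside 29.2%. Between Day 15 and Day 10, 20 were higher on Day 15, beside 11.7% of all genes, and 23 were lower, beside 12.4%. In percent of the 69 these counts are 30.4 and 37.7 for Day 10 against Day 4, 43.5 and 44.9 for Day 15 against Day 4, and 29.0 and 33.3 for Day 15 against Day 10. In either direction 47 genes passed the test for Day 10 against Day 4, beside 44.3% of all genes, 61 for Day 15 against Day 4, beside 57.8%, and 43 for Day 15 against Day 10, beside 24.1%.

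The genes of the set are abundant on straw, with a lowest mean level of 9.25 over the 3 days. Among the 6778 tested genes with a mean of at least 9, a background chosen after the data were seen, the higher and lower shares were 24.5% and 31.7% for Day 10 against Day 4, 30.2% and 40.2% for Day 15 against Day 4, and 16.1% and 19.2% for Day 15 against Day 10. The shares of the 69 genes for Day 10 against Day 4 and the lower share for Day 15 against Day 4 were thus within 6 percentage points of this second background. The remaining shares were farther above it. They were 43.5% higher for Day 15 against Day 4, and 29.0% higher and 33.3% lower for Day 15 against Day 10. The median log2 fold change of the 69 genes was -0.03 for Day 10 against Day 4, 0.02 for Day 15 against Day 4 and 0.12 for Day 15 against Day 10, beside 0.03, 0.01 and -0.002 over all genes tested. Rises and falls of any size that passed the test were close in number in each comparison. Among those of at least 2-fold, falls were more frequent. Such changes were 12 higher and 15 lower for Day 10 against Day 4 and 14 and 23 for Day 15 against Day 4. For Day 15 against Day 10 they were 4 and 11. The same split was not counted over all genes tested.

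Single genes nevertheless moved widely. The difference between a gene's highest and lowest straw day had a median of 1.18 and reached from 0.14 to 4.97. It was under 1 in 30 genes, at least 2 in 17 and at least 3 in 6. The highest day was Day 4 for 31 genes (44.9%), Day 10 for 11 (15.9%) and Day 15 for 27 (39.1%), close to the 47.1%, 15.5% and 37.4% of all genes with a highest mean of at least 7. When the 2 successive comparisons were combined, 14 genes fell in both, 8 rose in both, 4 rose and then fell, and 3 fell and then rose. The 4 are 5.80% of the set, beside 1.84% of all genes tested, and the 3 are 4.35%, beside 0.99%. A further 9 rose only by Day 10 (13.0%, beside 13.7%) and 9 fell only by Day 10 (13.0%, beside 14.8%). Only after Day 10, 9 rose (13.0%, beside 3.96%) and 5 fell (7.25%, beside 4.33%). Neither test was passed by 8 (11.6%, beside 47.4%). The 14 genes that fell in both are 20.3% of the set, beside 6.21% of all genes tested, and the 8 that rose in both are 11.6%, beside 6.76%. No call in any of the 3 comparisons was made for 4 of the 69 genes (5.80%), beside 36.3% of all genes tested. The matching shares were not counted among genes with a mean of at least 9, which had more calls in each comparison. The part of abundance in these differences was not tested.

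**Figure D3:**
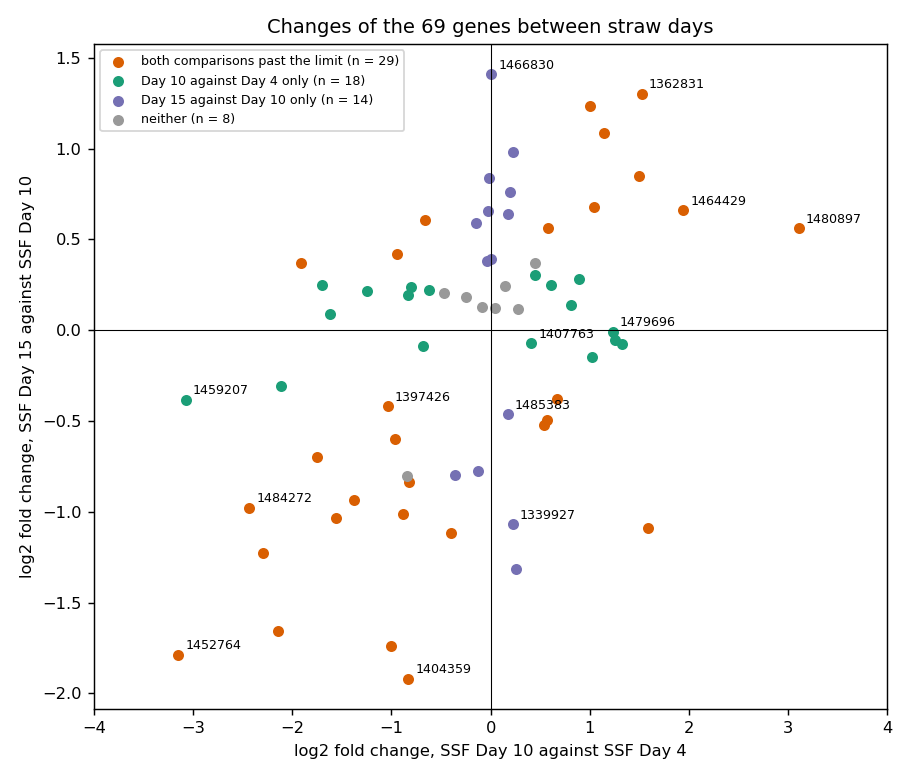
Log2 fold change of SSF Day 15 against SSF Day 10 plotted against that of SSF Day 10 against SSF Day 4 for each of the 69 genes. Colours give which comparison passed an edgeR adjusted p of 0.05. The 14 genes that fell in both lie at the lower left and the 8 that rose in both at the upper right, and ProtID #1452764 and #1480897 are the farthest to each side.

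Among the genes that were higher on Day 15 than on Day 4, ProtID #1480897 changed most. Its levels were 11.46 and 11.43 on Day 4, 14.68, 14.68 and 14.17 on Day 10 and 14.95, 15.20 and 15.11 on Day 15, against 5.66, 5.98 and 5.89 in the control. No 2 groups overlapped. Most of the rise was in place by Day 10 (Day 10 against Day 4, 3.11 ± 0.17, edgeR adjusted p = 2.5e-08; Day 15 against Day 4, 3.67 ± 0.18, adjusted p = 4.2e-09).

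ProtID #1362831 had levels of 10.65 and 11.03 on Day 4, 12.51, 12.53 and 11.93 on Day 10 and 13.43, 13.72 and 13.79 on Day 15, against 6.79, 6.82 and 6.85 in the control. The gain was spread over both intervals, by 1.52 ± 0.18 on Day 10 against Day 4 (edgeR adjusted p = 2.3e-05) and by 1.30 ± 0.16 on Day 15 against Day 10 (adjusted p = 0.00013). Its span overlaps a neighbouring gene, and on Day 4 it was one of the genes closest to the threshold.

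ProtID #1464429 had levels of 11.15 and 11.30 on Day 4, 13.04, 13.17 and 13.21 on Day 10 and 13.69, 13.87 and 13.85 on Day 15, against 5.91, 6.08 and 5.55 in the control. ProtID #1488342 had levels of 11.43 and 11.78 on Day 4, 13.29, 13.25 and 12.63 on Day 10 and 13.84, 14.03 and 13.94 on Day 15, against 6.62, 5.98 and 6.31 in the control. In both genes every straw day lay above the one before it without overlap. The rise on Day 15 against Day 4 was 2.60 ± 0.14 for #1464429 (edgeR adjusted p = 9.9e-09) and 2.35 ± 0.22 for #1488342 (adjusted p = 1.1e-06). The span of #1464429 also overlaps a neighbouring gene.

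A late rise was seen in ProtID #1466830, the least abundant gene of the set by its mean over the straw days. It had levels of 8.84 and 8.76 on Day 4, 9.05, 8.82 and 8.39 on Day 10 and 10.30, 10.19 and 10.08 on Day 15, against 4.58, 4.60 and 4.79 in the control. Days 4 and 10 overlapped, and all of Day 15 was above them (Day 15 against Day 10, 1.41 ± 0.14, edgeR adjusted p = 4.5e-05).

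The steepest fall was that of ProtID #1452764, which has the shortest span of the set, 854 bases. Its levels were 14.50 and 14.62 on Day 4, 10.72, 10.76 and 12.16 on Day 10 and 9.43, 9.60 and 9.75 on Day 15, against 4.88, 5.73 and 5.37 in the control. The third Day 10 library stood above the other 2 but below Day 4, and no groups overlapped. Both steps passed the test (Day 10 against Day 4, -3.15 ± 0.35, edgeR adjusted p = 1.2e-05; Day 15 against Day 10, -1.79 ± 0.32, adjusted p = 0.0018), and by Day 15 the change from Day 4 was -4.94 ± 0.38.

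ProtID #1488932 had levels of 11.75 and 11.92 on Day 4, 10.09, 9.28 and 9.51 on Day 10 and 8.38, 7.50 and 8.05 on Day 15, against 2.59, 1.58 and 2.74 in the control. It had the lowest control level of the 69, with 22 counts over the 3 libraries and a control SD of 0.628, the largest of the set. Its Day 15 level was 3.79 ± 0.26 lower than on Day 4 (log2 scale, edgeR adjusted p = 7.1e-08), with no overlap between days.

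ProtID #1361471 had levels of 14.96 and 15.02 on Day 4, 12.62, 12.32 and 13.00 on Day 10 and 11.50, 11.41 and 11.44 on Day 15, against 5.40, 4.82 and 4.70 in the control. On Day 4 it stood 10.02 above the control, the largest difference of any of the 69 genes on that day. ProtID #1459207 had levels of 14.88 and 15.08 on Day 4, 11.61, 11.70 and 12.25 on Day 10 and 11.46, 11.56 and 11.50 on Day 15, against 7.45, 7.41 and 7.60 in the control. It fell early, by Day 10 (-3.08 ± 0.17, edgeR adjusted p = 2.2e-08), and the later change did not pass the test (-0.38 ± 0.15, adjusted p = 0.081). For #1361471 both steps did, with -2.29 ± 0.19 (edgeR adjusted p = 6.7e-07) and then -1.23 ± 0.17 (adjusted p = 0.00033).

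The largest fall on Day 15 against Day 10 was that of ProtID #1404359. Its levels were 14.32 and 14.26 on Day 4, 13.21, 13.27 and 13.76 on Day 10 and 11.65, 11.43 and 11.47 on Day 15, against 6.97, 7.10 and 6.62 in the control. The days did not overlap, and the second step (-1.92 ± 0.16, edgeR adjusted p = 1.2e-05) followed a smaller first one (-0.83 ± 0.17, adjusted p = 0.0014).

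**Figure D4:**
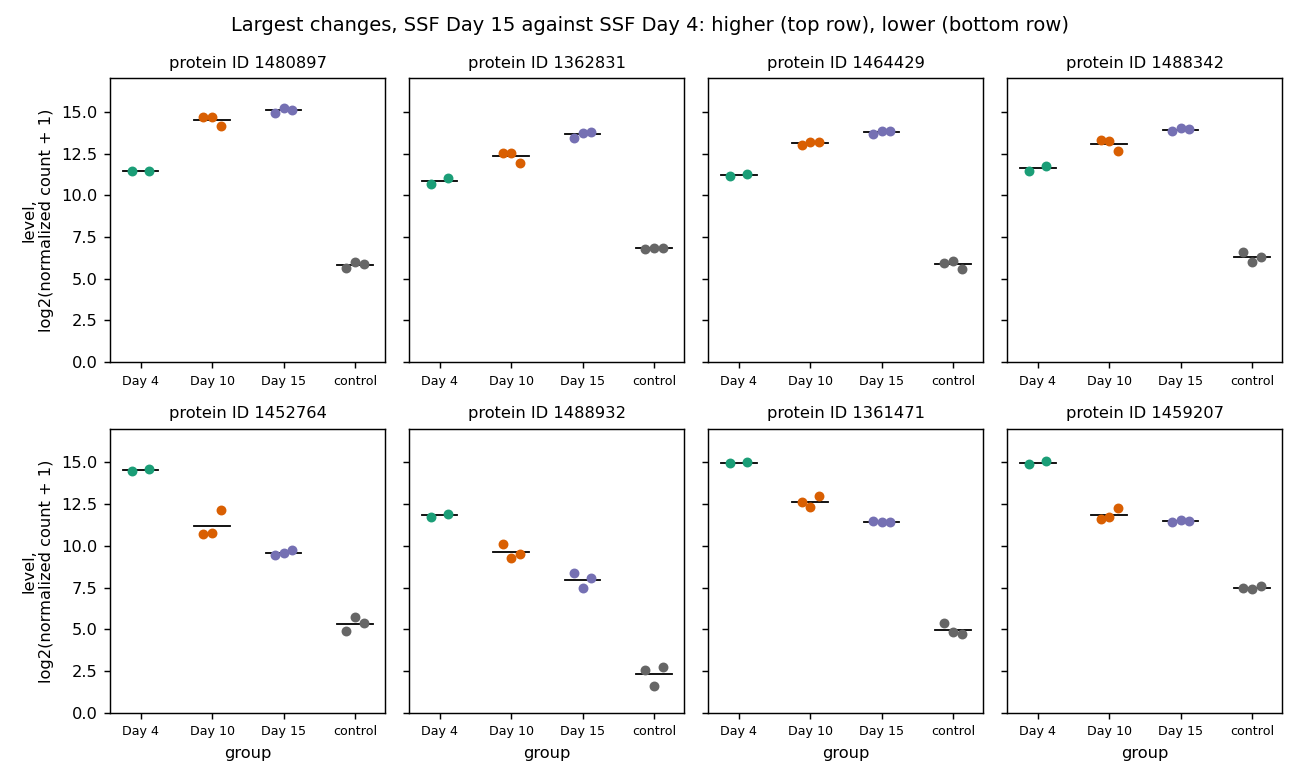
Levels, log2(normalized count + 1), in each library for the 4 genes with the largest rise (top row) and the 4 with the largest fall (bottom row) on SSF Day 15 against SSF Day 4. Points are libraries and lines are group means. ProtID #1480897 reached 14.95 to 15.20 on Day 15, against 11.43 to 11.46 on Day 4, and ProtID #1452764 fell to 9.43 to 9.75 on Day 15, against 14.50 to 14.62 on Day 4.

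The steadiest genes with a mean of at least 10 on every straw day were ProtID #1409277 and #1488303. The levels of #1409277 were 12.30 and 12.37 on Day 4, 12.09, 12.18 and 12.37 on Day 10 and 12.29, 12.39 and 12.37 on Day 15, against 7.95, 7.96 and 7.61 in the control. Those of #1488303 were 10.35 and 10.76 on Day 4, 10.59, 10.67 and 10.50 on Day 10 and 10.64, 10.78 and 10.71 on Day 15, against 5.53, 6.29 and 6.01 in the control. The straw days overlapped in both genes, and neither passed any test between days (Day 15 against Day 4, 0.04 ± 0.12 for #1409277 and 0.17 ± 0.16 for #1488303, edgeR adjusted p = 0.8 and 0.39).

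The replicate spread of the set was wider on Day 10 than on the other days. The median SD of a gene's level was 0.0748 on Day 4, 0.238 on Day 10 and 0.101 on Day 15, against 0.139 in the control. For all genes with a level of at least 9 it was 0.0933 on Day 4, 0.167 on Day 10 and 0.0893 on Day 15, against 0.0833 in the control. The third Day 10 library was the lowest of its group for 35 of the 69 genes. The median absolute difference of the 69 genes from their Day 4 mean was 0.770, 0.957 and 0.775 in Day 10 replicates 1, 2 and 3, and that from their Day 15 mean was 0.455, 0.427 and 0.678. Without it, 25 genes were higher and 28 lower on Day 10 than on Day 4. On Day 15 the first library was the lowest for 47 genes and the second the highest for 39. The part of these library differences in the calls was not tested beyond leaving each library out.

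At the threshold, the members nearest to it were ProtID #1412232, with a smallest difference of 4.01 on Day 10, #1459207, with 4.02 on Day 15, and #1362831, with 4.02 on Day 4. Just outside it were #1247191 with 3.98, #1488217 with 3.97 and #1094130 with 3.97, all on Day 15. On Day 4 the mean of #1488217 was 15.84, above that of most genes in the set.

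All 69 genes were found in the reference gene table of the assembly Polbr1, which gives their order and span but no product names. Their spans ran from 854 to 5074 bases with a median of 1766, beside 1447 for all 18240 matched genes. In gene order, 11 of the 69 formed 5 groups of members with at most 2 other genes between them. The largest held 3 adjacent genes, ProtID #1349037, #1417825 and #1417826, separated by 457 and 602 bases.

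ProtID #1349037 had levels of 12.74 and 12.66 on Day 4, 11.09, 11.03 and 10.79 on Day 10 and 11.14, 11.06 and 11.44 on Day 15, against 5.56, 5.51 and 5.55 in the control. ProtID #1417825 had levels of 10.66 and 10.93 on Day 4, 9.54, 9.54 and 9.49 on Day 10 and 9.48, 9.66 and 10.02 on Day 15, against 3.53, 3.17 and 3.98 in the control. ProtID #1417826 had levels of 12.47 and 12.56 on Day 4, 10.78, 11.04 and 10.30 on Day 10 and 10.00, 10.07 and 10.05 on Day 15, against 5.01, 4.64 and 4.42 in the control. Day 4 was the highest day of all 3 genes, without overlap with Day 10, and each fell by Day 10 (-1.70 ± 0.12, -1.25 ± 0.16 and -1.76 ± 0.16, edgeR adjusted p = 2.1e-07, 4e-05 and 2.5e-06). Only #1417826 changed further by Day 15 (-0.70 ± 0.15, edgeR adjusted p = 0.0052). The genes on either side, #1348771 and #1402511, differed from the control by 0.23 and 0.08 on Day 4, by 1.27 and -0.14 on Day 10 and by 1.71 and -0.21 on Day 15.

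ProtID #1351910 lies 165 bases from #1404359, the gene with the largest late fall. Its levels were 10.95 and 11.07 on Day 4, 10.24, 10.20 and 10.04 on Day 10 and 9.42, 9.58 and 8.93 on Day 15, against 5.01, 4.92 and 4.85 in the control. Like its neighbour it fell at each step (-0.82 ± 0.15 and -0.84 ± 0.14, edgeR adjusted p = 0.00067 and 0.0011). The spans of the abundant #1485383 and of #828876 overlap by 171 bases, so that reads in the overlap may not be assigned with certainty. ProtID #828876 had levels of 11.11 and 10.90 on Day 4, 11.74, 11.27 and 11.51 on Day 10 and 10.96, 10.97 and 11.08 on Day 15, against 6.29, 6.29 and 6.36 in the control. Its Day 10 libraries were above those of both other days (Day 10 against Day 4, 0.54 ± 0.13, edgeR adjusted p = 0.0043).

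In the other 2 groups, with 2 genes between the members, the courses differed. ProtID #1109042 rose by Day 10 while #1409277 was the steadiest gene of the set. ProtID #1412232 had levels of 12.47 and 12.94 on Day 4, 12.50, 12.68 and 12.46 on Day 10 and 12.92, 13.27 and 13.22 on Day 15, against 8.46, 8.71 and 8.46 in the control. Its Day 15 and Day 4 libraries overlapped, and its rise on Day 15 against Day 4 (0.44 ± 0.15, edgeR adjusted p = 0.025) was lost without SSF Day 4 replicate 1 (0.22) and without SSF Day 15 replicate 2 (0.38) or 3 (0.40). Its partner #1459207 fell. Next to #1459207 lies #1364811, a glycoside hydrolase of family GH3 in the study's tables that met the same thresholds, with differences from the control of 6.05 on Day 4, 4.71 on Day 10 and 4.58 on Day 15.

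**Figure D5:**
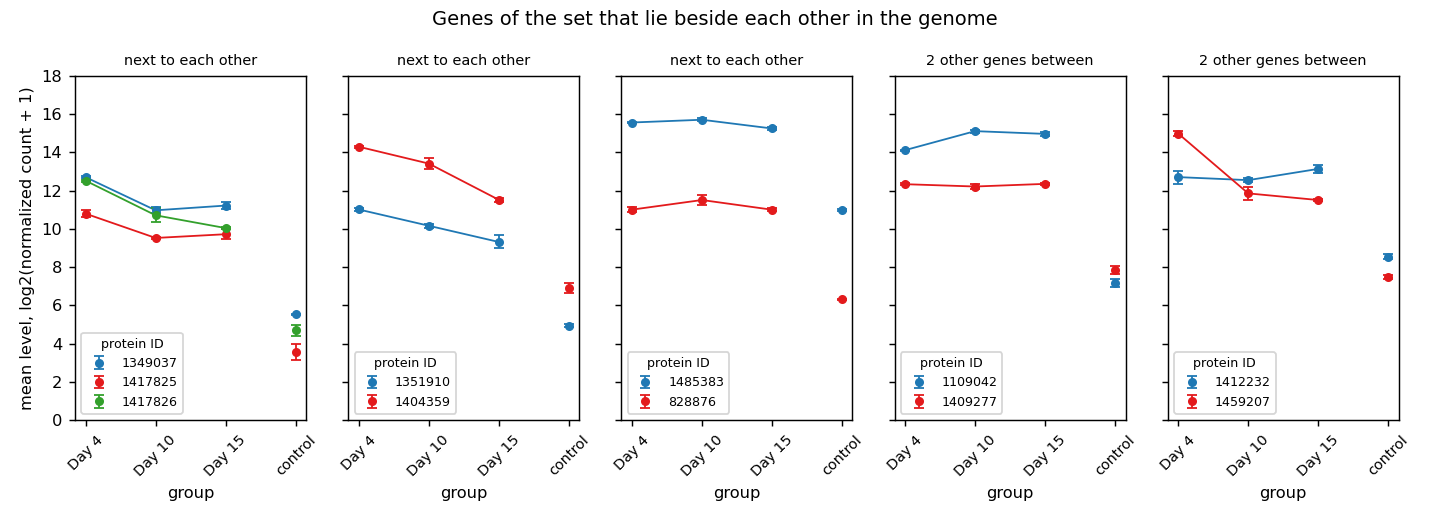
Mean level, log2(normalized count + 1), by group for the 11 genes that lie next to each other or with 2 other genes between them, 1 panel per group of neighbours. Bars are SD over 2 libraries on SSF Day 4 and 3 in each other group, and lines join the straw days. In the first panel all 3 adjacent genes were highest on Day 4, and in the second both fell at each step.

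Beyond these, 123 genes that are not in the set border one of the 69. Of these, 3 (2.44%) met the same thresholds. All 3 are in the study's tables, which the rule fixes for any such gene outside the set. The 0.576% of all genes that met the thresholds includes the 69, so it is not a like share. The 3 genes are #1364811, #1412498, an esterase of family CE16 next to #1467339, and #1486161, a xylanase of family GH10 next to #1357405. A difference from the control of at least 2 was reached by 16.3% of the 123 on Day 4, 15.4% on Day 10 and 14.6% on Day 15, beside 5.22%, 4.11% and 4.81% of all genes. The spans of 14 of the 69 genes overlap a neighbour. When only the 112 bordering genes that overlap no gene of the set were counted, the shares were 13.4% on Day 4, 13.4% on Day 10 and 12.5% on Day 15. This count was chosen after the data were seen.

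The 36 genes in the study's tables that met the thresholds had more falls than rises between straw days. Of these, 10 (27.8%) were higher and 19 (52.8%) lower on Day 15 than on Day 4, beside 28.6% and 29.2% of all genes tested. Their median log2 fold change was -0.34, beside 0.02 for the 69 genes. Like the 69 they were chosen on these libraries, and the difference between the lists was not tested. Of the 19 class II peroxidases (AA2, the family of lignin-degrading manganese and versatile peroxidases), 8 met the thresholds. On Day 15, 5 of the 19 (26.3%) were higher than on Day 4 and 13 (68.4%) lower, beside the same 28.6% and 29.2%. Of the 36 glucose-methanol-choline oxidoreductases (AA3, which include suppliers of hydrogen peroxide) 1 met the thresholds. Of the 33 tested, 5 (15.2%) were higher and 15 (45.5%) lower on Day 15 than on Day 4.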

How the data were processed

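Reads had been trimmed with Sickle, mapped with TopHat2 and counted per gene with HTSeq by the authors, who deposited raw counts. The strand and overlap modes of counting are unknown here. All 11 columns were used, and 0 were left out.

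Levels used median-of-ratios size factors and a pseudocount of 1. Straw days were compared by quasi-likelihood F tests in edgeR 4.0.16 under R 4.3.3. Genes were filtered with filterByExpr (min.count 10, min.total.count 15), libraries were scaled by TMM, and the 4 groups of all 11 libraries were fitted together, which left 7 residual degrees of freedom. The code was tested on simulated data. The SE was obtained from the fold change and its F statistic. Differences from the control chose the genes and were not tested. DESeq2 1.42.0 was an alternative. Python 3.11.15 was used for summaries.

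The genes and lists were chosen with earlier results of these data known. Named genes were the 6 most abundant, the 4 with the highest smallest difference from the control, the 4 largest rises and falls past the test for Day 15 against Day 4, 2 each for the other comparisons, the 2 steadiest, the 3 nearest the threshold and all in groups of neighbours.

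Labels give a pre-culture of 6 days and the methods 7. Day 4 has 2 libraries where triplicates are described.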

Additional observations from a re-analysis of the deposited data

Results flagged for a closer look

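The rise over the control differed between straw days for many of the 69 genes, by the edgeR test of the difference between days (adjusted p at most 0.05). It differed for 47 genes (68.1%) between Day 10 and Day 4, beside 44.3% of all genes tested, for 61 (88.4%) between Day 15 and Day 4, beside 57.8%, and for 43 (62.3%) between Day 15 and Day 10, beside 24.1%. Among genes with a mean level of at least 9 on straw, as all 69 have, the shares with a call were above those of all genes tested. In the order of the comparisons, 24.5%, 30.2% and 16.1% of these genes were higher and 31.7%, 40.2% and 19.2% lower. Each was below the share of the 69 genes, with 30.4%, 43.5% and 29.0% higher and 37.7%, 44.9% and 33.3% lower.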

How the results depend on the processing

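Of 720 alternative values of the named genes, 693 kept their side of the threshold, 27 lost the call and 0 that passed the test turned direction. The number of genes that met the thresholds was 173 with a difference of at least 3, 26 with at least 5, 65 with TMM scaling and 47 with library totals, and 65 to 72 without 1 library. Of the 69, 56 met the thresholds whichever library was left out. Without the 10 most abundant genes of the table, the share of counts was 4.13% on Day 4, 3.88% on Day 10 and 3.56% on Day 15, against 0.0897% in the control. Leaving out 1 library gave 3.94% to 4.04%, 3.63% to 3.67% and 3.27% to 3.34%, against 0.0838% to 0.0847%. When the test asked for a change above 1 on the log2 scale (edgeR glmTreat), 7 genes were higher and 11 lower for Day 10 against Day 4, 9 and 19 for Day 15 against Day 4, and 0 and 2 for Day 15 against Day 10, where 3 were higher at an unadjusted p of 0.05 or less. This test sets a stricter hypothesis by construction, and DESeq2 (with no minimum) called 21 higher in that comparison. Without 1 library the counts were 17 to 25 higher and 26 to 28 lower for Day 10 against Day 4, 23 to 30 and 30 to 32 for Day 15 against Day 4, and 17 to 21 and 21 to 25 for Day 15 against Day 10. With the replicate number as a block they were 23 and 28, 31 and 31, and 21 and 23. The labels do not say what a number marks. The deviations of same-numbered straw libraries correlated at 0.0868 to 0.216, and each library correlated best with its own number in 14 of 14 comparisons. These comparisons are not independent. Pairs are counted from both sides, and the deviations of the 2 Day 4 libraries mirror each other. With library totals, 26 genes were higher and 25 lower for Day 10 against Day 4. Counting only genes whose span overlaps no neighbour, an alternative chosen after the data were seen, gave 15 and 20, 24 and 24, and 17 and 17. Day 4 has 2 libraries, which limits what can be said of its spread.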
